A study of Mus musculus with 8 samples.

Results

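The TGF-beta superfamily genes of mouse brown fat were examined in mice that lack the histone demethylase Lsd1 (gene symbol Kdm1a) in brown adipocytes and in their controls. Every gene of the deposited count table whose symbol names a TGF-beta, BMP, GDF, activin subunit, one of their receptors, a Smad, a latent TGF-beta binding protein or an antagonist of the noggin, chordin or follistatin type and their like was taken, without Gdf15. This gave 64 of 23372 genes, each counted from its most highly counted transcript. RNA from brown adipose tissue of 10 week old mice on a C57BL/6 N background was sequenced as 8 libraries, 4 from controls (labelled 511, 514, 517 and 518) and 4 from knockouts (512, 513, 515 and 516). Controls carried floxed Lsd1, and knockouts came from crosses of floxed mice with Ucp1-Cre mice, in which the promoter of the uncoupling protein gene Ucp1 drives Cre in brown adipocytes. Since the labels give Cre to the knockouts alone, the transgene and the loss of Lsd1 cannot be told apart. The labels do not say more on how the samples were taken, so the spread behind each p-value is that between libraries and may be technical.

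Ligands of this family are secreted dimers that bring together type I and type II receptor kinases at the cell surface. The type I receptor then phosphorylates receptor-regulated Smads, which join Smad4 and enter the nucleus: Smad2 and Smad3 for TGF-beta, activin and related ligands, Smad1, Smad5 and Smad9 for BMPs. Some latent binding proteins hold TGF-beta inactive in the matrix, and follistatins, chordins, noggin and similar proteins bind ligands outside the cell. In brown fat, Bmp7 is known to promote brown adipocyte formation, and Bmp8b is known as a secreted factor of mature brown adipocytes that raises their response to noradrenaline.

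Kdm1a was measured at 35.3, 36.0, 33.3 and 36.9 CPM (counts relative to the effective library size) in control libraries 511, 514, 517 and 518 and at 14.0, 12.2, 13.2 and 13.0 CPM in knockout libraries 512, 513, 515 and 516, and this library order is kept throughout. It fell 2.70-fold (log2 fold change -1.43, adjusted p = 2.66e-05; here and below edgeR's quasi-likelihood test with Benjamini-Hochberg adjustment over 14178 tested genes). Ucp1, which marks brown adipocytes, ranged over 3143 to 5574 CPM in controls and 1202 to 1525 CPM in knockouts and fell 3.25-fold (adjusted p = 0.000477, edgeR). Total counts lay between 33011022 and 38756920 per library over all transcripts. Over the 1 transcript kept per gene they lay between 23683936 and 28570627. Marker genes of several cell types moved with the groups. Summed skeletal muscle markers were 286 to 6839.6 CPM in controls, lowest in control 514, and 7695 to 16663 CPM in knockouts, with all 12 log2 fold changes positive (median 1.47) and 0 of 12 called. Macrophage markers summed to 77.6 to 133 against 142 to 220.3 CPM (4 of 8 higher), Schwann cell and nerve markers to 201 to 215 against 254 to 279.7 CPM (1 of 5 tested higher), and fibroblast and preadipocyte markers to 255 to 387 against 325 to 417 CPM, with overlap (1 of 8 higher). Erythroid markers, also overlapping, summed to 587 to 798 against 757 to 1116 CPM (0 of 4 called, all 4 log2 fold changes positive, median 0.48). Adipocyte markers summed to 18021 to 24138 against 13165 to 14898 CPM (5 of 7 lower), and brown adipocyte markers to 6823 to 9664 against 4153 to 4765 CPM (4 of 8 lower). Endothelial markers summed to 1064 to 1263 against 1085 to 1248 CPM (0 of 7 called), and no marker was at 0 in all libraries. Smooth muscle and pericyte markers summed to 543 to 667 against 535 to 654 CPM (1 of 7 higher, 1 lower). Lymphocyte markers summed to 2.92 to 14.7 against 3.65 to 5.33 CPM (5 tested, 0 called, 0 positive, median log2 fold change -0.39). In whole tissue, fewer cells of a type and less RNA per cell cannot be told apart.

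Of the 64 genes, 50 had enough counts to be tested, and 15 were higher and 5 lower in knockouts at an adjusted p under 0.05. Over all 14178 tested genes, 15.4% were higher and 18.9% lower, 34.4% in all, beside 40.0% of the tested members. The median log2 fold change was 0.33 over the 50 tested members and -0.01 over all tested genes, with 32 positive and 18 negative members. The groups' values did not overlap for 19 of the 50 members, 38.0%, beside 35.5% of all tested genes. By role, 7 of 16 tested ligands, 2 of 3 follistatin family genes and 1 of 4 BMP antagonists were higher and none of these was lower, and Bmp1, a protease, was higher. Of the 4 latent TGF-beta binding proteins 1 was higher and 1 lower. Among the 11 type I and type II receptors 1 was higher and 1 lower, of 3 coreceptors and receptor-associated genes 1 was lower, and among the 8 Smads 2 were higher and 2 lower. The counts depend on the scaling between libraries: with upper quartile factors 18 members were higher and 3 lower (all genes 2915 and 1625), and with library sizes alone 20 were higher and 0 lower (all genes 4077 and 930), where the median of all genes moved from -0.01 to 0.19 and that of the members from 0.33 to 0.52. With the mean log2 CPM of the 12 skeletal muscle markers as a covariate 6 members were higher and 4 lower (all genes 1519 and 1958). Of these, 6 and 3 were called in the same direction in the reported fit.

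**Figure D1:**
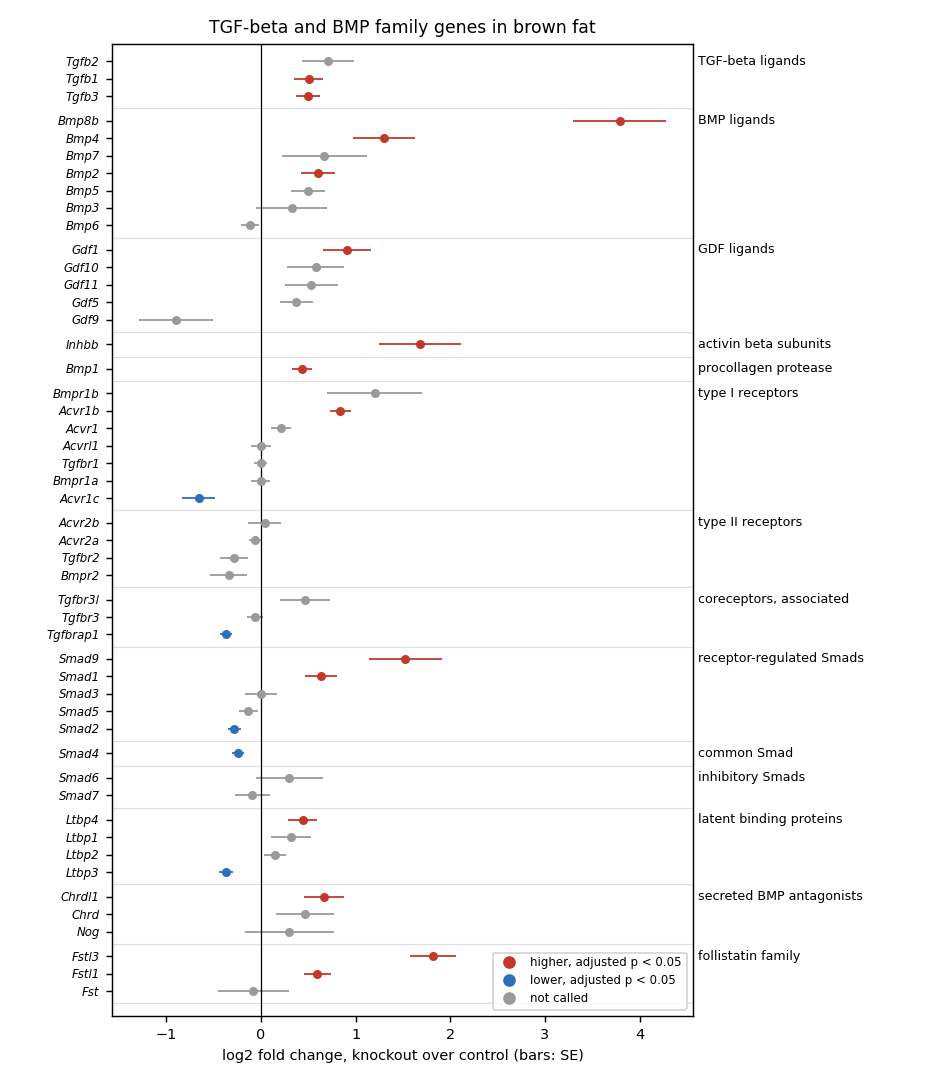
Log2 fold change, knockout over control, of 49 of the 50 tested family members, grouped by role on the y axis, with bars of 1 approximate standard error; red marks 15 members that were higher and blue 5 that were lower at an adjusted p under 0.05, and grey 29 that were not called. Bmp8b lies farthest to the right at 3.79, and 9 of the 11 type I and type II receptors are grey.

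The 10 BMP ligand genes held the largest change. Bmp8b was at 0.468, 0.0798, 0.705 and 0.302 CPM in controls and 3.61, 8.12, 3.51 and 6.21 CPM in knockouts. Every knockout was above every control, with knockout 513 the highest and control 514 the lowest. Bmp8b rose 13.8-fold, from 0.388 ± 0.264 to 5.36 ± 2.22 CPM (SD, n = 4 each; log2 fold change 3.79, SE 0.49, adjusted p = 0.000796, edgeR). The control libraries rest on few reads, with 12.5, 2.5, 16.5 and 7.5 counts beside 90.0, 216.5, 89.0 and 165.5 in knockouts. Under all 16 alternative settings it stayed called, with log2 fold changes of 3.29 (adjusted p = 0.00875, with the skeletal muscle marker covariate) to 4.21 (without control 517).

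Bmp8b was counted over chr4:123105165-123126091 on the plus strand of mm10, from the exons of its RefSeq transcript. Its neighbours within 100 kilobases that could be tested were not called: Trit1, a tRNA modifying enzyme upstream, had a log2 fold change of -0.22 (adjusted p = 0.0746), and Ppie and Hpcal4 downstream had -0.04 (0.708) and -0.05 (0.887), with Nt5c1a at 0.27 (0.605), all by edgeR. Of Bmp8b's annotated exon bases 8.74% lie under the opposite-strand gene Gm17244, and the counting did not use strand. The paralog Bmp8a lies on the minus strand at chr4:123312650-123343252. It had 0, 1, 0 and 0 counts in controls and 0.5, 4.5, 0 and 2 in knockouts, too few to test. Of the 50-base stretches in annotated Bmp8b transcripts 5.50% also occur in Bmp8a.

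The 250 bases before the RefSeq start of each gene (build GRCm38.p6) are shown because Bmp8b had the largest change of the family while its paralog stayed near 0 counts. Capitals mark the Smad box CAGAC, to which Smad3 and Smad4 bind, or its reverse complement GTCTG. Both runs are given 5′ to 3′ on the gene's own strand, Bmp8b from chr4:123104911-123105160 (plus) and Bmp8a from chr4:123343253-123343502 (minus).
Bmp8b: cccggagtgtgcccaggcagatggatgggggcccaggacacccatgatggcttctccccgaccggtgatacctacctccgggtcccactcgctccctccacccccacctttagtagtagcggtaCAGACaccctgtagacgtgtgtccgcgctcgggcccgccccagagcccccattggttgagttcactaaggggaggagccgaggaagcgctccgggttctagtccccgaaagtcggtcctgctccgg
Bmp8a: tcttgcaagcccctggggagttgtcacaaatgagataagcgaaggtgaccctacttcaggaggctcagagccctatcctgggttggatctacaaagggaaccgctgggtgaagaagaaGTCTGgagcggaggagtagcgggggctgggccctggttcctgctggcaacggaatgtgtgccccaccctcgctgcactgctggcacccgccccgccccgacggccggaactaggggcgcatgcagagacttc
Each of the sequences holds 1 Smad box. GC content was 65.2% with 17 CpG for Bmp8b and 62.0% with 12 CpG for Bmp8a, against medians of 52.4% and 6 CpG over all 32851 promoters in the table. CAGAC was found on either strand in 42.2% of all promoters and in 27 of the 57 promoters (47.4%) listed for 45 members. The GC-rich Smad element GGCGCC was in neither of the printed runs, in 9.59% of all promoters and in 11 of the 57 (19.3%).

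Bmp4 and Bmp2 were the other BMP ligands that passed. Bmp4 (mm10 chr14:46383520-46390599), which acts on adipocyte precursors, was at 0.936, 1.04, 1.50 and 1.28 CPM in controls and 2.61, 4.59, 1.54 and 2.99 CPM in knockouts. Knockout 515 lay just above the highest control, and knockout 513 was the highest. Bmp4 rose 2.47-fold (log2 fold change 1.30, SE 0.33, adjusted p = 0.0148, edgeR), a call not made by limma-voom with sample weights (adjusted p = 0.0695). Bmp2 was at 2.14, 1.76, 1.76 and 2.07 CPM in controls and 2.25, 3.42, 3.27 and 2.80 CPM in knockouts, with knockout 512 only slightly above control 511. It rose 1.52-fold (log2 fold change 0.60, SE 0.18, adjusted p = 0.0314, edgeR), and the call ended without control 514 or 517 or knockout 513, 515 or 516 (adjusted p = 0.0711, 0.0683, 0.0941, 0.0863 and 0.0625). With the muscle covariate, neither Bmp4 (log2 fold change 1.19, adjusted p = 0.0832) nor Bmp2 (log2 fold change 0.53, adjusted p = 0.150) was called.

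Per length, Bmp6 was the most abundant BMP ligand in every library, at 10.3 ± 0.863 RPKM (CPM over transcript length in kilobases; SD, n = 4) in controls and 9.50 ± 0.878 RPKM in knockouts, and it was not called (log2 fold change -0.11, adjusted p = 0.392, edgeR). Summed over the 10 BMP ligands, controls held 11.9 to 14.4 RPKM and knockouts 14.0 to 18.7 RPKM. Without Bmp6 the sums were 2.78 to 3.62 and 5.76 to 8.38 RPKM. Bmp8b made up 0.950% of the summed level in controls (0.228 to 1.70%) and 10.9% in knockouts (7.91 to 14.9%). Bmp6 made up 75.9% and 58.0%. Even so, Bmp8b at 1.83 ± 0.760 RPKM in knockouts stayed below Bmp6. In controls Bmp8b stood at rank 49 of the 50 tested members per length, at 0.133 ± 0.0902 RPKM.

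**Figure D2:**
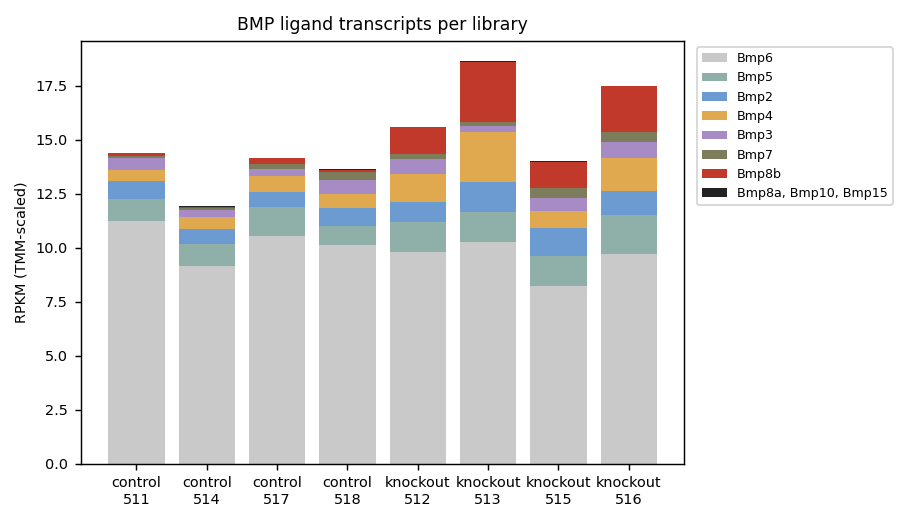
RPKM of the BMP ligand genes stacked by gene (colours) for each of the 8 libraries on the x axis. Bmp6 forms most of every bar, and the red Bmp8b segment is 0.228 to 1.70% of the bar in controls and 7.91 to 14.9% in knockouts.

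The remaining BMP ligands were not called. Bmp5 was at 2.57, 2.55, 3.39 and 2.19 CPM in controls and 3.57, 3.53, 3.47 and 4.56 CPM in knockouts, and although the groups did not overlap its adjusted p was 0.0564 (edgeR; log2 fold change 0.50). It passed without control 517 (adjusted p = 0.0264) and with DESeq2 (0.0363), upper quartile factors (0.0352) or library sizes alone (0.0159). Of Bmp5's annotated exon bases 46.7% lie opposite Gm26903. Bmp7 and Bmp3 had log2 fold changes of 0.67 and 0.33 (adjusted p = 0.274 and 0.526, edgeR). Bmp10 had 0 counts in all 8 libraries and Bmp15 6 counts over the controls and 3 over the knockouts.

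All 3 TGF-beta genes had positive log2 fold changes, and Tgfb1 and Tgfb3 passed the test. Tgfb1 was at 25.1, 19.8, 22.6 and 14.6 CPM in controls and 26.4, 30.4, 29.7 and 30.0 CPM in knockouts, where knockout 512 was only just above control 511. It rose 1.42-fold (log2 fold change 0.51, SE 0.15, adjusted p = 0.0295, edgeR). The call ended without control 514 (adjusted p = 0.0591) or knockout 513 (0.0738), 515 (0.0676) or 516 (0.0708). Markers of macrophages, a known source of Tgfb1, summed to 77.6 to 133 CPM in controls and 142 to 220.3 CPM in knockouts, and their part in this result was not tested. Tgfb3 was at 8.11, 6.58, 5.86 and 7.95 CPM in controls and 10.0, 10.4, 10.3 and 9.61 CPM in knockouts, and the knockouts lay within a narrow band above all controls. Tgfb3 rose 1.42-fold (log2 fold change 0.50, SE 0.13, adjusted p = 0.0151, edgeR). With the muscle covariate neither Tgfb1 (log2 fold change 0.55, adjusted p = 0.0807) nor Tgfb3 (log2 fold change 0.40, adjusted p = 0.108) was called. Tgfb2 was at 2.07, 0.878, 1.85 and 1.77 CPM in controls and 3.53, 2.56, 2.29 and 2.36 CPM in knockouts, without overlap, but its adjusted p was 0.0723 (edgeR; log2 fold change 0.71); it passed with upper quartile factors (0.0462) and library sizes alone (0.0281). Per length, the TGF-beta ligands summed to 12.3 ± 2.18 RPKM in controls and 17.6 ± 0.791 RPKM in knockouts (SD, n = 4 each), mostly Tgfb1 at 9.87 and 14.0 RPKM.

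Inhbb (mm10 chr1:119415465-119422248), which encodes the beta B subunit of activin B and inhibin B and is made by adipocytes, was at 7.13, 3.63, 1.41 and 1.92 CPM in controls and 9.06, 11.4, 13.9 and 10.9 CPM in knockouts. Control 511 stood well above the other controls, yet below every knockout. Inhbb rose 3.20-fold (log2 fold change 1.68, SE 0.43, adjusted p = 0.0163, edgeR). Without control 511 the log2 fold change was 2.28 (adjusted p = 0.00180), and with the muscle covariate the log2 fold change was 1.79 with an adjusted p of 0.0534. The other subunit genes were close to absent: Inhba had 15.5 counts over all libraries, Inhbc 0.5 and Inhbe 0. A count of 0 over the 8 libraries allows up to 0.0147 CPM, taking 3 counts as the limit.

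Among the 9 GDF genes 5 were tested and 1 passed. Gdf1 was at 1.56, 0.798, 1.50 and 1.81 CPM in controls and 3.25, 2.56, 2.29 and 2.58 CPM in knockouts, with no overlap for the transcript counted. It rose 1.88-fold (log2 fold change 0.91, SE 0.25, adjusted p = 0.0220, edgeR), a call that ended without knockout 512 (adjusted p = 0.0565) or with the muscle covariate (0.195, log2 fold change 0.42). Gdf1 shares its transcript with the ceramide synthase gene Cers1: 100% of its annotated exon bases lie in Cers1 exons on the same strand, and Cers1 itself had a log2 fold change of 0.95 (adjusted p = 0.0195). The reads of the Gdf1 and Cers1 entries therefore cannot be told apart. A shorter Gdf1 transcript had 27.5, 14.5, 26.5 and 41.0 counts in controls and 55.0, 48.0, 36.0 and 47.0 in knockouts. For that transcript control 518 lay above knockout 515 before scaling, and it was not tested alone. Gdf5 and Gdf10, the most abundant GDF genes per length, were at 8.61 to 16.4 and 9.26 to 15.4 CPM in controls and 15.3 to 18.1 and 11.8 to 27.7 CPM in knockouts, and were not called (log2 fold changes 0.37 and 0.58, adjusted p = 0.126 and 0.161, edgeR). Gdf5 passed without control 517 (adjusted p = 0.0489) and with library sizes alone (0.0420), and 40.3% of its exon bases lie opposite Gm15557. Gdf11 had a log2 fold change of 0.53, and Gdf9, a growth factor known from oocytes, had the most negative value of the family at -0.90 (adjusted p = 0.104, edgeR). Gdf2, Gdf3, Gdf6 and Gdf7 had 1 to 39.0 counts over all libraries and were not tested.

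Over all 26 ligand genes the summed level per length was 35.1 to 42.4 RPKM in controls and 47.8 to 57.9 RPKM in knockouts, so that every knockout was above every control. Of the 16 tested ligands 14 had a positive log2 fold change, with a median of 0.56 beside -0.01 over all genes. Bmp1 (mm10 chr14:70474555-70520260), which shares the BMP name but is a metalloprotease that trims procollagens and cleaves the antagonist chordin, was at 25.7, 23.7, 27.5 and 21.3 CPM in controls and 29.9, 31.1, 34.5 and 37.1 CPM in knockouts. The groups did not overlap, and Bmp1 rose 1.35-fold (log2 fold change 0.43, SE 0.10, adjusted p = 0.0119, edgeR).

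Of the 11 type I and type II receptor genes 9 were not called. Of the 7 type I receptor genes Acvr1b was higher, Acvr1c was lower and 5 were not called. Acvr1b (mm10 chr15:101174125-101212601), the type I receptor also called ALK4 through which activins signal, was at 10.8, 8.86, 9.25 and 9.12 CPM in controls and 16.5, 17.3, 15.0 and 19.2 CPM in knockouts. All knockouts lay clearly above all controls, and the spread within each group was small. Acvr1b rose 1.79-fold, from 9.52 ± 0.895 to 17.0 ± 1.74 CPM (SD, n = 4 each; log2 fold change 0.84, SE 0.11, adjusted p = 0.000840, edgeR). Acvr1c, the related receptor ALK7 that is known for its high level in adipocytes, moved the other way: it was at 79.3, 85.8, 142 and 92.6 CPM in controls, highest in control 517, and 71.3, 61.1, 57.8 and 63.3 CPM in knockouts. It fell 1.58-fold (log2 fold change -0.66, SE 0.17, adjusted p = 0.0183, edgeR), and the call ended without knockout 513 (adjusted p = 0.0507) or 515 (0.0523) and with library sizes alone (0.0679). Per length Acvr1c was at 11.1 RPKM in controls and 7.04 RPKM in knockouts, and Acvr1b at 2.92 and 5.22 RPKM. Adipocyte markers also fell in 5 of 7 cases, with a sum of 18021 to 24138 CPM in controls and 13165 to 14898 CPM in knockouts, and their part in the Acvr1c result was not tested.

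The BMP receptor Bmpr1a (50.1 to 64.0 CPM in controls, 50.8 to 64.4 CPM in knockouts) and Acvrl1, the endothelial receptor ALK1 (30.0 to 39.0 and 29.3 to 36.1 CPM), had log2 fold changes of -0.00298 (SE 0.10) and -0.00161 (SE 0.10). Tgfbr1 and Acvr1 were at -0.00238 and 0.22 on the same scale. Bmpr1b was low in all libraries, at 0.234 to 1.02 CPM in controls and 0.828 to 2.89 CPM in knockouts (log2 fold change 1.20, adjusted p = 0.0940, edgeR). None of the 4 type II receptor genes was called. Tgfbr2, the TGF-beta type II receptor, had the highest level per length of the family in controls, at 78.5 ± 17.3 RPKM, beside 64.4 ± 5.18 RPKM in knockouts (SD, n = 4 each), and ranged over 295 to 485 CPM and 282 to 339.7 CPM (log2 fold change -0.29, adjusted p = 0.156, edgeR). Control 518 was the highest and the groups overlapped. Bmpr2, Acvr2a and Acvr2b had log2 fold changes of -0.34, -0.06 and 0.04 (adjusted p = 0.200, 0.533 and 0.870, edgeR).

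Tgfbrap1, whose product binds TGF-beta receptors and takes part in endosome sorting, was at 61.6, 63.4, 59.4 and 54.5 CPM in controls and 46.4, 46.1, 46.5 and 45.9 CPM in knockouts. The 4 knockouts were nearly equal and below all controls. It fell 1.29-fold (log2 fold change -0.37, SE 0.06, adjusted p = 0.00289, edgeR), and with library sizes alone the log2 fold change was -0.17 (adjusted p = 0.0610). The coreceptor betaglycan, Tgfbr3, ranged over 109 to 139 CPM in controls and 111 to 113 CPM in knockouts (log2 fold change -0.07, adjusted p = 0.564, edgeR). Tgfbr3l, which shares 52.2% of its exon bases with Gm49320 on the same strand, was at 1.81 to 4.14 and 3.46 to 5.53 CPM (log2 fold change 0.47, adjusted p = 0.197, edgeR).

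**Figure D3:**
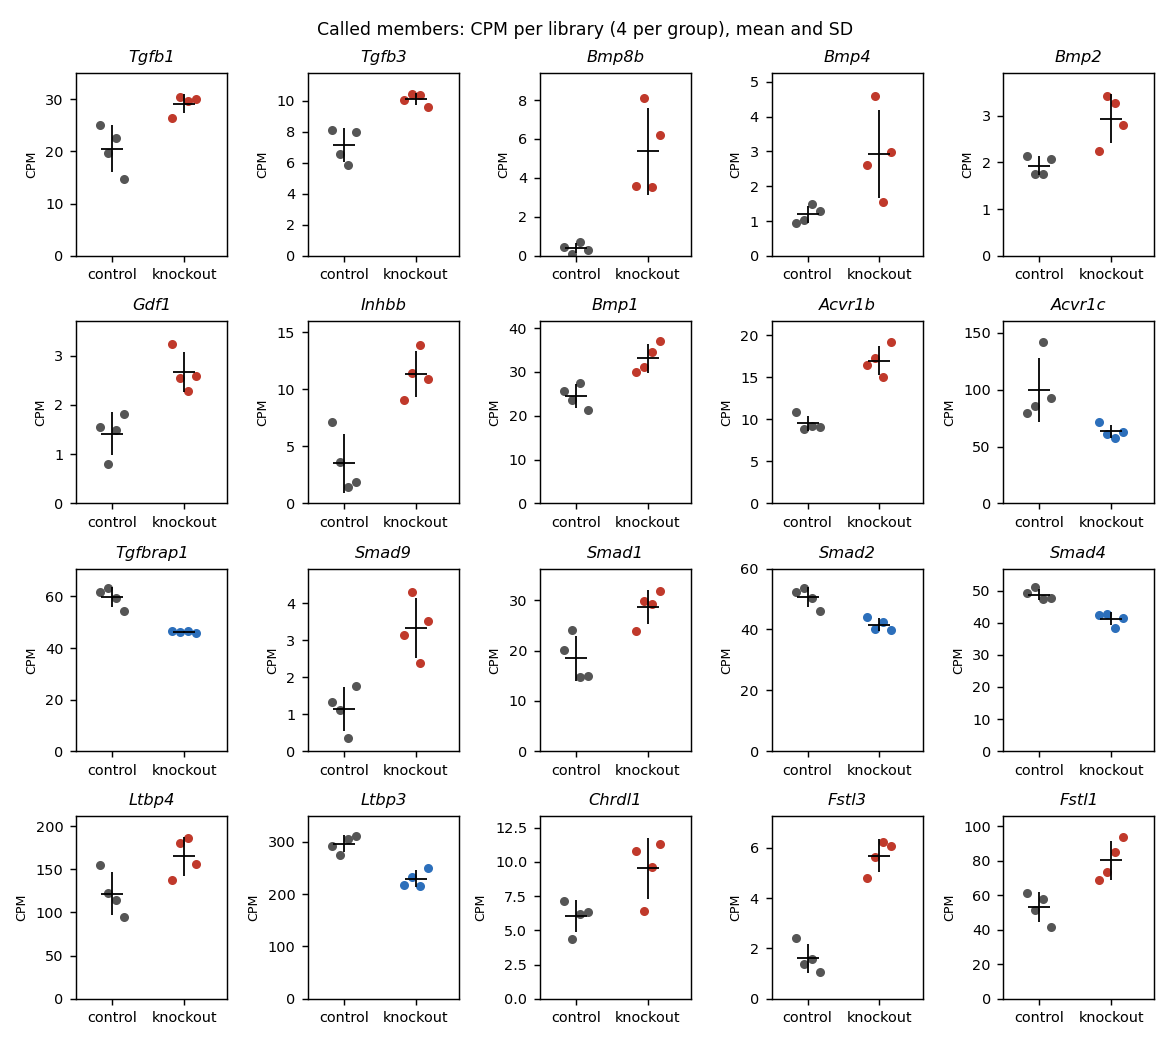
CPM (y axis, from 0) of the 20 family members with an adjusted p under 0.05 in each library of the 4 controls and 4 knockouts (points), with the mean as a horizontal bar and the SD as a vertical line. The groups do not overlap for 17 of the 20, and overlap for Smad1, Chrdl1 and Ltbp4. Because the 20 were chosen by the test, little overlap follows from the choice. Over all tested genes, called or not, the groups do not overlap for 35.5%.

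Both directions were found among the Smads. Of the BMP-regulated Smads, Smad9 and Smad1 rose, and of those regulated by TGF-beta and activin, Smad2 fell. Smad9 (mm10 chr3:54755582-54801257), also called Smad8, was at 1.33, 1.12, 0.352 and 1.77 CPM in controls and 3.13, 4.29, 2.37 and 3.51 CPM in knockouts, all knockouts above all controls and control 517 the lowest. It rose 2.88-fold (log2 fold change 1.53, SE 0.38, adjusted p = 0.0152, edgeR) and was not called with the muscle covariate (adjusted p = 0.0761, log2 fold change 1.38). Smad1 was at 20.0, 24.2, 14.8 and 14.9 CPM in controls and 23.9, 29.9, 29.2 and 31.9 CPM in knockouts, and control 514 was above knockout 512. Smad1 rose 1.55-fold (log2 fold change 0.64, SE 0.17, adjusted p = 0.0189, edgeR). Its call ended narrowly without knockout 513 (adjusted p = 0.0504) or 516 (0.0551) and held with the muscle covariate (0.00376, log2 fold change 0.97). Smad5, per length the most abundant of the BMP-regulated Smads in controls (11.6 RPKM, beside 6.10 for Smad1 and 0.213 for Smad9), was not called (log2 fold change -0.13, adjusted p = 0.328, edgeR).

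Smad2 was at 52.2, 53.7, 50.3 and 46.1 CPM in controls and 44.2, 40.0, 42.3 and 39.9 CPM in knockouts, and Smad4, the partner shared by both branches, at 49.1, 51.1, 47.3 and 47.6 and 42.5, 42.6, 38.3 and 41.6 CPM. Each was lower in every knockout than in every control, by a small amount. Smad2 fell 1.22-fold (log2 fold change -0.28, SE 0.07, adjusted p = 0.0143, edgeR), and Smad4 1.18-fold (log2 fold change -0.24, SE 0.06, adjusted p = 0.0171, edgeR). Changes of this size depend on the scaling: with library sizes alone the log2 fold changes were -0.08 and -0.04 (adjusted p = 0.341 and 0.644), with upper quartile factors -0.18 and -0.14 (0.0827 and 0.123), and with the muscle covariate -0.22 and -0.20 (0.118 and 0.125). The Smad4 call also ended without knockout 515 (adjusted p = 0.0516). Smad3 was not called (log2 fold change -0.00317, SE 0.17), nor were the inhibitory Smad6 and Smad7, which are induced by the pathway and dampen it (log2 fold changes 0.30 and -0.09, adjusted p = 0.531 and 0.734, edgeR). Smad6 spread from 7.61 to 30.3 CPM among controls and 23.1 to 30.0 CPM among knockouts. Summed over the 5 receptor-regulated Smads, the level per length was 31.1 ± 2.47 RPKM in controls and 32.9 ± 0.671 RPKM in knockouts (SD, n = 4 each), and the groups overlapped.

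The genes named as latent TGF-beta binding proteins included 3 of the 5 most abundant family members per length in controls. Ltbp3 was at 292, 275, 305 and 312 CPM in controls and 218, 234, 216 and 251 CPM in knockouts, without overlap. It fell 1.29-fold (log2 fold change -0.37, SE 0.07, adjusted p = 0.00582, edgeR), and was not called with library sizes alone (log2 fold change -0.17, adjusted p = 0.135). Ltbp4 was at 155, 122, 114 and 95.0 CPM in controls and 137, 180.4, 186 and 156 CPM in knockouts, with control 511 above knockout 512 and close to knockout 516. It rose 1.36-fold at the edge of the threshold (log2 fold change 0.44, SE 0.15, adjusted p = 0.0495, edgeR), and the call was lost in 9 of 16 alternatives, among them those without control 514, 517 or 518 or knockout 513, 515 or 516 (adjusted p = 0.0753 to 0.125). Ltbp2 ranged over 174 to 238 and 214 to 268 CPM and Ltbp1 over 7.50 to 14.6 and 10.8 to 14.6 CPM; neither was called (log2 fold changes 0.15 and 0.32), though Ltbp1 passed without control 518 (log2 fold change 0.59, adjusted p = 0.0169) and Ltbp2 with library sizes alone (0.0339). The 4 genes summed to 116 ± 6.96 RPKM in controls and 116 ± 7.46 RPKM in knockouts (SD, n = 4 each).

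Among the follistatin family genes 2 of the 3 tested were higher. Fstl3 (mm10 chr10:79777274-79782630), a secreted inhibitor of activin and myostatin, was at 2.42, 1.40, 1.59 and 1.06 CPM in controls and 4.81, 5.64, 6.23 and 6.09 CPM in knockouts. The lowest knockout was well above the highest control. Fstl3 rose 3.52-fold, from 1.61 ± 0.579 to 5.70 ± 0.641 CPM (SD, n = 4 each; log2 fold change 1.82, SE 0.24, adjusted p = 0.000878, edgeR). Of Fstl3's exon bases 47.3% lie under the opposite-strand gene Prss57, which also rose (log2 fold change 1.81, adjusted p = 0.000458, edgeR), and without strand in the counting reads from either gene enter both entries. Fstl1 (mm10 chr16:37777055-37836516), a secreted glycoprotein of stromal cells with a follistatin domain, was at 61.5, 51.4, 57.7 and 41.3 CPM in controls and 68.6, 73.6, 84.9 and 93.5 CPM in knockouts, all knockouts above all controls. It rose 1.51-fold (log2 fold change 0.60, SE 0.14, adjusted p = 0.0107, edgeR). Fst itself varied most among controls (5.27 to 18.8 CPM, highest in control 518, against 7.22 to 11.2 CPM in knockouts) and was not called (log2 fold change -0.08, adjusted p = 0.883, edgeR). Fstl4 and Fstl5 had 0 counts in all libraries.

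Of the 4 tested BMP antagonists, Chrdl1, a chordin-like protein that binds BMPs, was called higher. It was at 7.17, 4.39, 6.17 and 6.33 CPM in controls and 10.8, 6.39, 9.63 and 11.3 CPM in knockouts, and knockout 513 lay within the range of the controls. Chrdl1 rose 1.59-fold (log2 fold change 0.67, SE 0.21, adjusted p = 0.0359, edgeR), but lost the call in 9 of 16 alternatives, among them those without control 514, 517 or 518 or knockout 512, 515 or 516 (adjusted p = 0.0519 to 0.0975) and that with the muscle covariate (0.243, log2 fold change 0.42). Chrd was at 1.59 to 3.05 CPM in controls and 1.58 to 3.81 CPM in knockouts (log2 fold change 0.47). Neither Chrd nor Nog was called. Chrdl2 had 51.5 counts and Grem1 7 counts over all libraries and were not tested.

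Genes of the pathway outside the family were read from a list of 68 that were found in the table, of which 61 were tested. Of these, 15 were higher (24.6%, beside 15.4% of all tested genes) and 3 lower (4.92%, beside 18.9%), with a median log2 fold change of 0.21. With the muscle covariate 6 were higher, without knockout 513, 515 or 516 the numbers were 9, 8 and 8, and with library sizes alone 26. Among 18 transcriptional targets 5 were higher, 0 lower and 13 not called. The collagen genes Col1a1, Col1a2 and Col3a1 were not called (log2 fold changes 0.42, 0.51 and 0.56, adjusted p = 0.262, 0.163 and 0.220, edgeR). Nor were Acta2, Cdkn1a, Postn and Cdkn2b, at 0.24, 0.06, -0.03 and -0.42 on the log2 scale. Tgfbi, a matrix protein named for its induction by TGF-beta, was at 32.7, 26.9, 21.4 and 30.7 CPM in controls and 59.3, 56.2, 46.6 and 65.5 CPM in knockouts and rose 2.04-fold (log2 fold change 1.03, adjusted p = 0.00117, edgeR). Ctgf, Fn1 and Id4 were also called higher, at 1.14, 0.68 and 1.04 on the log2 scale. The Ctgf call ended without control 517 or knockout 513 or 516 (adjusted p = 0.0503, 0.0611 and 0.0581) and with the muscle covariate (0.0686), and the Fn1 call without control 518 or knockout 515 or 516 (0.0541, 0.0854 and 0.0897) and with the muscle covariate (0.206).

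The Id genes, direct targets of BMP signalling that encode inhibitors of basic helix-loop-helix factors, gave 1 call among 4. Id4 was at 2.49, 3.11, 2.55 and 2.00 CPM in controls and 4.41, 5.94, 5.80 and 4.75 CPM in knockouts and rose 2.06-fold (adjusted p = 0.00279, edgeR). Id1 was at 53.4, 47.9, 46.8 and 45.4 CPM in controls and 42.3, 84.5, 76.0 and 55.9 CPM in knockouts (log2 fold change 0.42, adjusted p = 0.118, edgeR). Id3 was at 54.4, 72.0, 67.5 and 68.1 CPM in controls and 59.0, 128, 99.9 and 90.7 CPM in knockouts (log2 fold change 0.53, adjusted p = 0.0720, edgeR). In both, knockout 512 was low and within or below the controls, and without it Id1 and Id3 passed (log2 fold changes 0.57 and 0.70, adjusted p = 0.0173 and 0.00872). With library sizes alone the adjusted p was 0.0356 for Id1 and 0.0290 for Id3, and Id3 also passed with upper quartile factors (0.0436) and DESeq2 (0.0277). Id2 was at 22.7, 69.0, 82.8 and 83.0 CPM in controls and 28.0, 51.4, 48.5 and 49.9 CPM in knockouts, with control 511 apart from the other controls (log2 fold change -0.53, adjusted p = 0.283, edgeR). Without control 511 it was called lower (log2 fold change -0.82, adjusted p = 0.0156).

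**Figure D4:**
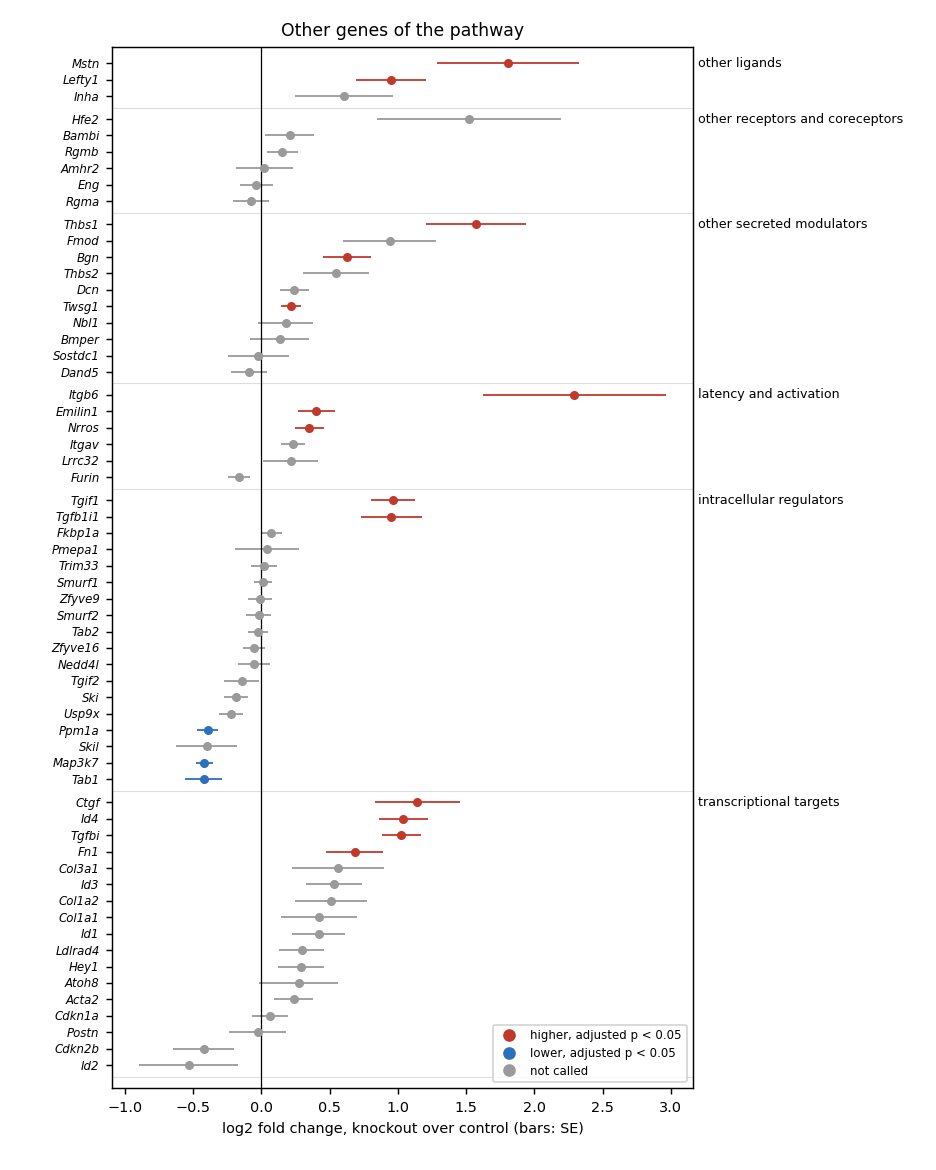
Log2 fold change, knockout over control, of 60 of the 61 tested pathway genes outside the family, grouped by role on the y axis, with bars of 1 approximate standard error; red marks 14 higher and blue 3 lower at an adjusted p under 0.05. The 3 lower genes, Map3k7, Ppm1a and Tab1, are all intracellular regulators.

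Among 18 intracellular regulators 2 were higher (11.1%, beside 15.4% of all tested genes) and 3 lower (16.7%, beside 18.9%). Map3k7 (TAK1), the kinase of the Smad-independent branch, was at 79.5, 73.0, 75.5 and 75.7 CPM in controls and 55.9, 60.2, 55.3 and 55.9 CPM in knockouts and fell 1.34-fold (log2 fold change -0.42, adjusted p = 0.00123, edgeR). Its partner Tab1 was at 19.6, 26.7, 32.5 and 27.2 CPM in controls and 19.0, 19.4, 20.0 and 20.5 CPM in knockouts, with control 511 among the knockouts. It fell 1.34-fold (log2 fold change -0.42, adjusted p = 0.0398, edgeR), and the call was lost in 10 of 16 alternatives: without any 1 library other than control 511 (adjusted p = 0.0666 to 0.0889), with upper quartile factors (0.109), with library sizes alone (0.249) and with the muscle covariate (0.138). Ppm1a, a phosphatase that acts on receptor-regulated Smads, was at 200.3, 225, 223 and 221 CPM and 185, 154, 158 and 163 CPM and fell 1.31-fold (adjusted p = 0.00497, edgeR; 0.0821 with library sizes alone). The corepressor Tgif1 was at 4.99, 3.83, 2.99 and 4.37 CPM and 7.54, 7.97, 7.42 and 8.75 CPM and rose 1.95-fold (adjusted p = 0.00259, edgeR). Tgfb1i1 (Hic-5), a focal adhesion protein induced by TGF-beta, was at 19.3, 15.5, 13.8 and 9.20 CPM and 21.3, 28.2, 35.3 and 27.3 CPM and rose 1.94-fold (adjusted p = 0.0111, edgeR). Map3k7, Ppm1a, Tgif1 and Tgfb1i1 had groups that did not overlap. The Smad corepressor Skil was not called (log2 fold change -0.40, adjusted p = 0.194, edgeR).

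Of 10 tested secreted modulators 3 were higher, of 6 latency and activation genes 3, of 3 other ligands 2 and of 6 other receptors 0, and none of these was lower. Over all tested genes 15.4% were higher and 18.9% lower. Thbs1, which can release TGF-beta from its latent form, was at 14.7, 8.38, 9.51 and 7.84 CPM in controls and 15.3, 25.9, 54.1 and 24.9 CPM in knockouts, highest in knockout 515, and rose 2.98-fold (adjusted p = 0.0111, edgeR; 0.0528 with the muscle covariate). Mstn (myostatin) and Itgb6, singled out after their values were seen, were at 0.585, 0.0399, 0.793 and 1.17 and 1.09, 0.0798, 0.352 and 2.04 CPM in controls and 2.49, 2.26, 2.13 and 2.24 and 7.74, 4.29, 2.84 and 2.92 CPM in knockouts. Myostatin is known as a product of skeletal muscle. Both genes were lowest in control 514, the library with the lowest summed muscle markers (286 CPM, beside 7695 to 16663 CPM in knockouts). Bmp8b (0.0798 CPM), Gdf1 (0.798 CPM), Tgfb2 (0.878 CPM) and Chrdl1 (4.39 CPM) were also lowest there, whereas Smad1 was highest there among controls (24.2 CPM). The part of muscle in these values was not tested. For Mstn and Itgb6 the log2 fold changes were 1.81 and 2.29 (adjusted p = 0.0265 and 0.0279, edgeR). They became 0.63 and 0.59 with the muscle covariate (adjusted p = 0.247 and 0.347) and 2.70 and 3.16 with limma-voom. The Mstn call also ended without control 511 or any 1 knockout (adjusted p = 0.0542 to 0.0596), and that of Itgb6 without control 517 or knockout 512 or 513 (0.0593 to 0.0727), while without control 518 the log2 fold change of Itgb6 was 3.13.

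Bmp8b, Acvr1b, Fstl3, Fstl1 and Bmp1 stayed past the threshold in all 16 alternatives, and the other 15 called members lost it in at least 1. No called member changed sign in any of them. The alternative that ended the largest number of calls was the muscle covariate, which took 9 of the 15 higher and 2 of the 5 lower members below the threshold. The summed markers did not overlap between the groups (286 to 6839.6 CPM in controls, 7695 to 16663 CPM in knockouts), so this fit cannot fully separate markers from group. Among the calls it ended, some log2 fold changes shrank (Gdf1, 0.91 to 0.42) and others did not (Tgfb1, 0.51 to 0.55). The part of muscle in these results was not tested. Leaving out knockout 516 left 10 of the 15 higher calls, and leaving out knockout 515 left 3 of the 5 lower calls. By the authors' deposited table, at an FDR under 0.05, 14 members were higher and 3 lower, of which 13 and 3 were called in the same direction here and 0 in the opposite one; over all its rows 9.29% were higher and 8.15% lower. The members called here and not in the authors' deposited table were Bmp2, Ltbp4, Smad2 and Smad4. Chrdl2 was higher in that table (fold ratio 3.95, FDR 0.0221, the authors' edgeR) and was not tested here. It had 10 counts over the controls and 41.5 over the knockouts.

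**Figure D5:**
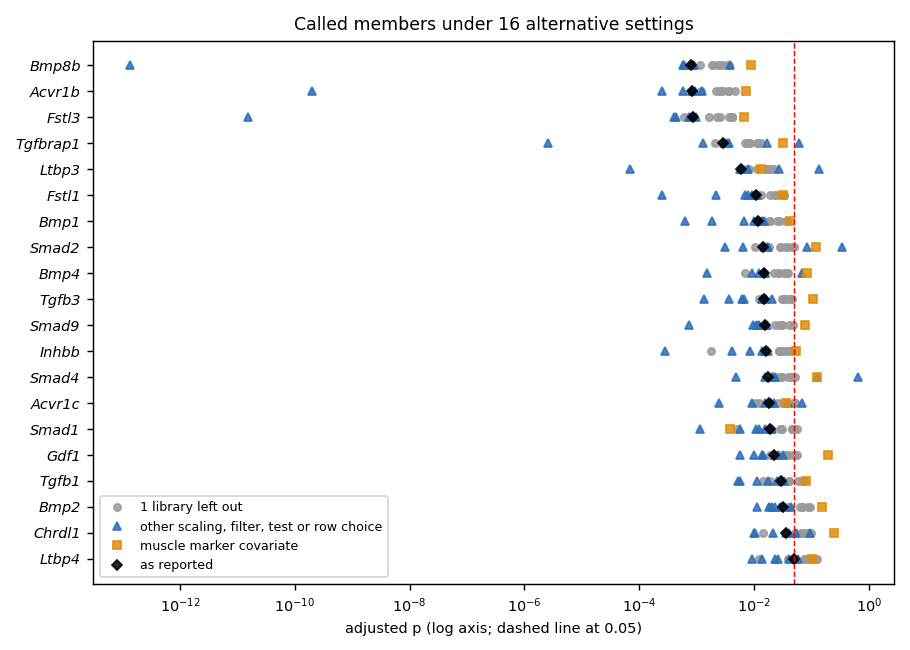
Adjusted p (log axis) of the 20 called members under the reported test (black), 8 fits that each leave out 1 library (grey), other scaling, filter, test or row choices (blue) and the skeletal muscle marker covariate (orange), with the dashed line at 0.05. Bmp8b, Acvr1b, Fstl3, Fstl1 and Bmp1 have all points left of the line.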

How the data were processed

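Brown fat RNA was sequenced in 4 control and 4 knockout libraries. Reads were aligned to mm10 with TopHat2 and counted with HOMER, per the file headers and the submitters' processing notes. The deposited table holds estimated counts per RefSeq transcript over exons, without strand and in steps of 0.5, per the file headers. The authors' deposited edgeR table adds scaled counts (an expression signal per library), a linear fold ratio, log2 fold changes, p-values and FDR.

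Here the 829 of 30521 rows without a symbol (0.0608 to 0.0824% of counts) were left out, the row with the highest total was kept per symbol, and counts were rounded to whole numbers (36.9% of values were not whole). Genes passing filterByExpr with a minimum count of 10 were tested with the quasi-likelihood test of edgeR 4.0.16 (R 4.3.3), TMM scaling, no covariate, two-sided, with Benjamini-Hochberg adjustment over 14178 genes at 0.05. In the text, called means past that threshold. SE is the absolute log2 fold change over the square root of F. CPM uses TMM-scaled library sizes, and RPKM divides it by the transcript length of the table. The test was checked on simulated data, where small changes were often missed, so a gene that was not called may still differ.

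Exon overlap was taken from GENCODE M21, and promoters from RefSeq (45 of 64 members matched). Members were named in full when called. Of those not called up to 2 per role, the most abundant per length, were given by value. Of the other pathway genes the 8 with the smallest p were named, with Id1, Id2, Id3 and Skil. Outside these rules, the called genes Tab1, Ctgf, Fn1, Mstn and Itgb6 and some further genes that were not called were also given. A few genes that these rules name are not reported here, though the counts over lists include them. Among the list entries, 1 was not matched (Cripto). Alternatives were other scalings, no filter, DESeq2 1.42.0, limma-voom (limma 3.58.1), summed rows, a muscle marker covariate and each library left out. The members and lists were chosen with earlier results of these data known.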

Additional observations from a re-analysis of the deposited data

Results flagged for a closer look

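In 7 of 120 groups of 4 libraries (60 named genes in controls and in knockouts), the highest or lowest library stood apart: its gap to the nearest other library, as a share of the group's range, exceeded Dixon's critical value. Chance alone marks about 1 in 20 groups. Among the knockouts, Bmp5 was high in 516 (4.56 CPM, the others at 3.47 to 3.57 CPM) and Bmpr1b was high in 512 (2.89 CPM, the others at 0.828 to 1.09 CPM). Tgfbr1 was low in knockout 515 (27.0 CPM, the others at 28.3 CPM), Id2 was low in knockout 512 (28.0 CPM, the others at 48.5 to 51.4 CPM) and Map3k7 was high in knockout 513 (60.2 CPM, the others at 55.3 to 55.9 CPM). Among the controls, Tgfbr3 was high in 518 (139 CPM, the others at 109 to 112 CPM) and Ppm1a was low in 511 (200.3 CPM, the others at 221 to 225 CPM).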

How the results depend on the processing

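Across 16 alternatives Bmp8b kept its direction and call, and no called member changed sign. The members called higher (15 as reported) were 6 with the skeletal muscle covariate and 10 to 15 when 1 library was left out. The members called lower (5) were 3 with upper quartile factors, 0 with library sizes alone and 3 to 5 when 1 library was left out. The pathway genes called higher (15) were 26 with library sizes alone, 6 with the muscle covariate and 8 to 15 when 1 library was left out, and those called lower (3) were 1 with library sizes alone and 2 to 4 when 1 library was left out. The median log2 fold change of the tested members was 0.33 as reported, 0.52 with library sizes alone and 0.29 to 0.41 when 1 library was left out. The cause of these differences was not tested.

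Genes that were not called and lay near 0 changed sign in 45 cases. Their log2 fold changes were, with library sizes alone, Bmp6 0.0884, Tgfbr3 0.13, Fst 0.10, Smad7 0.11, Smad5 0.0624, Smad3 0.20, Bmpr1a 0.20, Acvrl1 0.20 and Acvr2a 0.14; with upper quartile factors, Tgfbr3 0.0367, Fst 0.0258, Smad7 0.0131, Smad3 0.10, Bmpr1a 0.10, Acvrl1 0.10 and Acvr2a 0.0427; with relative log expression factors, Smad3 0.0121, Bmpr1a 0.0106 and Acvrl1 0.0122. With DESeq2 they were Smad3 0.0123, Bmpr1a 0.0107 and Acvrl1 0.0122, with limma-voom Fst 0.15, Smad3 0.0209 and Acvrl1 0.0223, with counts summed over a symbol's rows Acvrl1 0.000116 and with the muscle covariate Acvrl1 0.0215. When 1 library was left out the ranges were Acvrl1 -0.0425 to 0.0786, Bmpr1a -0.0659 to 0.0506, Fst -0.29 to 0.46, Smad3 -0.15 to 0.11, Smad7 -0.23 to 0.0279 and Tgfbr3 -0.11 to 0.0453.

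No paired analysis was possible because the replicate numbers of the control and knockout libraries are all different. Depth limits the 14 untested members, with at most 51.5 counts over all libraries, and Bmp8b in controls, with 2.5 to 16.5 counts. Counting without strand limits Fstl3, Bmp5 and Gdf5, whose exons overlap genes on the opposite strand, and overlap on the same strand limits Gdf1 and Tgfbr3l.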
